A study of Rattus norvegicus with 18 samples.

Results

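The cell cycle and DNA replication genes described here were 42 named genes, taken by symbol. They were read on 2 Affymetrix rat array types, called A and B in the labels. A member was measured where a probe set, the group of short probes that reads a transcript, was annotated to its symbol alone, and the brightest such probe set on average gave its value. Of the 42 genes, 41 had such a probe set (57 probe sets, 43 on type A and 14 on type B), out of 13810 genes named on the arrays. Tpx2, a spindle assembly factor, had none annotated to it alone and was not analysed here.

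Lung RNA came from male Sprague-Dawley rats that breathed mainstream smoke of the 2R4F reference cigarette through the nose for 2 h a day on 5 days of each of 13 weeks. Animals received sham exposure or smoke at 300 or 600 µg/l of total particulate matter (TPM). Dissection followed 2, 6 or 20 h after exposure ended, which gave 9 conditions. Each condition had 1 array of each type, 18 in all. The rats' age and the number of animals behind an array are not stated in the labels, and no genetic alteration is named. For 4 smoke samples at 20 h an exposure entry of the labels reads sham, while title and source name smoke, and they were grouped by title. The type B arrays of sham and 300 µg/l at 2 h correlated at 0.56 in their departures from the gene means, against at most 0.12 for any other type B pair. Lung epithelial markers were present, with 7 of 7 tested.

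The cell cycle is driven by cyclins that switch on cyclin-dependent kinases (CDKs), opposed by CDK inhibitor proteins. In S phase the MCM ring unwinds DNA while PCNA clamps polymerases to it, and in G2 and mitosis kinases such as Plk1 and the Aurora kinases build the spindle and divide the chromosomes. Most cells of an adult lung rest outside the cycle, so transcripts of the late phases come from few cells, whereas D cyclins, Cdk4 and CDK inhibitors are also made in resting cells.

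No member passed the test of limma, a linear model fitted to each probe set, in any of 8 comparisons among exposures and times. Signals were compared as log2(signal + 50), with p-values adjusted by Benjamini-Hochberg over all 19638 probe sets tested and a threshold of 0.05. The lowest adjusted p of any member was 0.13, for the microtubule regulator Stmn1 at 600 µg/l against sham. Stmn1 and the mitotic phosphatase Cdc25b had lower signals at 600 µg/l than under sham, and the spindle motor Kif11 had higher ones, without overlap of the arrays. Such arrays did not overlap for 6 tested members (21.4%), against 14.4% of all probe sets. With 1 array per condition, each exposure was compared over its 3 times, the p-values reflect only how these arrays scatter, and the small number of arrays limits the precision. In whole lung, fewer cells of a type and less RNA per cell cannot be told apart.

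The promoters of the 4 members with the smallest p at 600 µg/l are shown so that their cell cycle motifs can be set beside their values. Each is the 250 bases before the gene's start in RefSeq, build GRCr8, written from 5′ to 3′ on the gene's own strand, with motif matches in capitals. Stmn1 lies on the plus strand at chr5:151964929-151965178, Cdc25b on the plus strand at chr3:138859923-138860172, Kif11 on the plus strand at chr1:244536617-244536866 and Mcm7 on the minus strand at chr12:22163179-22163428.
Stmn1: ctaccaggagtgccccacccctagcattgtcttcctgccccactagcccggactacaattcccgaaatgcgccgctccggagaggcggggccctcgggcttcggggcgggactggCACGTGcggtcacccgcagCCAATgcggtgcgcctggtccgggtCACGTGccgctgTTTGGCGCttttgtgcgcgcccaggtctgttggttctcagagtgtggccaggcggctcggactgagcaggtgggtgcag
Cdc25b: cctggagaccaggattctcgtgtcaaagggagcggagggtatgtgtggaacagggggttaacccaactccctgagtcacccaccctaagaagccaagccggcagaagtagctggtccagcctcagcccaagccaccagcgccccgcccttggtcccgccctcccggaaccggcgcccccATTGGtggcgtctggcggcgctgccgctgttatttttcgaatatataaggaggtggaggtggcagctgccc
Kif11: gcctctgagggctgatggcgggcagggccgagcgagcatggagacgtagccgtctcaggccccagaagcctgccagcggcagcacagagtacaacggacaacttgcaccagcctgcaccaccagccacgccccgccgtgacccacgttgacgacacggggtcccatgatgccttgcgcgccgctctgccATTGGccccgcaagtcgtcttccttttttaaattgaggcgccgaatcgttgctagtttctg
Mcm7: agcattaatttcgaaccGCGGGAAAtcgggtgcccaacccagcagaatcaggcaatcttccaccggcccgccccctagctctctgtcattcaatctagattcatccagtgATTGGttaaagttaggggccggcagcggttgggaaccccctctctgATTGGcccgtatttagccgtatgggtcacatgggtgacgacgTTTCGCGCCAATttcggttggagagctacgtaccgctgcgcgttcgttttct
Motifs were searched on both strands. The CCAAT box was searched by the letters in its name. The cell cycle homology region was searched as TTTGAA. For E2F sites the letters were TTTGGCGC, TTTCGCGC, TTTCCCGC or TTTGCCGC. The E-box was searched as CACGTG. In Mcm7 the letters of an E2F match and a CCAAT box overlap. Stmn1 held 1 CCAAT box, 1 E2F match and 2 E-boxes, and Mcm7 held 3 CCAAT boxes and 2 E2F matches. Cdc25b and Kif11 each held 1 CCAAT box and no match to the other motifs.

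A promoter was given for 32 members. CCAAT boxes stood in 23 of them (71.9%), against 34.3% of 27457 RefSeq promoters of the same length. E2F matches stood in 7 (21.9%, against 1.81%), namely Mcm2, Mcm5, Mcm6, Mcm7, Stmn1, Tyms and Cdk1. The homology region stood in 7 (21.9%, against 16.0%), and the E-box in 4 (12.5%, against 5.79%). Of the 6 promoters of MCM and Pcna genes, 4 held an E2F match and 5 a CCAAT box. All 7 promoters of the chromosome, spindle and proliferation marker group held a CCAAT box. These are matches of letters, and binding was not measured here. Members with an E2F match had values in both directions at 600 µg/l, with Mcm7 at 0.21 and Stmn1 at -0.39 on the log2 scale.

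Many members were dim. A probe set was tested when it reached the 40th percentile of its array type, a signal of 183.8 on A or 238.7 on B, in at least 3 of the 9 arrays. Of the 41 members, 28 were tested (68.3%), against 73.6% of all named genes. Of these, 23 were read on type A and 5 on type B (Ccne2, Cdk2, Kif11, Nusap1 and Cenpf). The level was reached on every array by 20 of the 28, while the other 8 passed on some arrays.

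The 13 untested members were Ccne1, Cdk6, Rrm2, Tyms, Ccna2, Ccnb2, Cdk1, Aurka, Bub1, Bub1b, Ttk, Top2a and Mki67. They include the classic proliferation marker Mki67 (37.9 to 126.5), the mitotic topoisomerase Top2a (110.4 to 175.8), the S phase cyclin Ccna2 (53.0 to 202.0) and the nucleotide enzyme Rrm2 (8.4 to 144.2). Below the level on every array were 11 of them, and Cdk1 and Bub1 reached it on 2 arrays each. Cdk1, the mitotic kinase, read 142.4 to 216.6. Top2a read 114.2 to 128.1 under sham, 110.4 to 118.0 at 300 µg/l and 142.3 to 175.8 at 600 µg/l, so its highest 3 arrays were the 600 µg/l ones, all below the level for testing; it is singled out here after its values were seen. By role, the test reached 6 of 8 cyclins and CDKs of G1, 3 of 3 CDK inhibitors, 7 of 7 MCM and Pcna genes, 1 of 3 nucleotide supply genes, 4 of 8 genes of mitotic entry, 2 of 5 of the spindle checkpoint and mitotic exit, and 5 of 7 of the chromosome, spindle and proliferation group. Brightness also depends on the probes, so signals of different genes are not compared as levels.

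**Figure D1:**
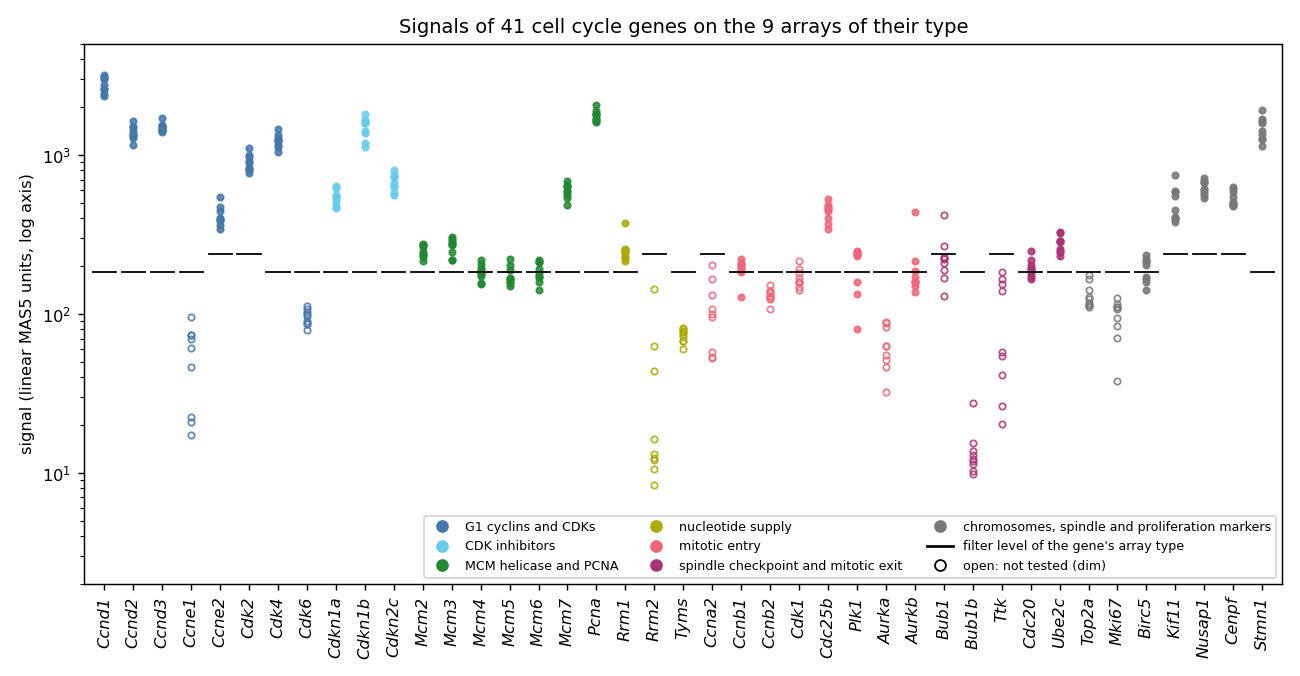
Signal of 41 members (linear MAS5 units on a log axis) on the 9 arrays of their type, coloured by role, with a bar at the level for testing. Open points are the 13 untested members, and the D cyclins, Cdkn1b, Pcna and Stmn1 lie far above the bar on every array.

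At 600 µg/l against sham, 0 of 28 members passed, against 0.514% of all probe sets. At an unadjusted p under 0.05 there were 4 members (2 higher, 2 lower; 14.3%), against 10.3% of all. Their values were 13 positive and 15 negative, with a median of -0.016 on the log2 scale beside -0.007 over all probe sets. Arrays of the exposures did not overlap for 6 members (21.4%), against 14.4% of all probe sets. Higher were Ccne2, Pcna and Kif11, and lower were Cdk2, Stmn1 and Cdc25b. The 95% intervals lay within a change of 2-fold either way for 27 of 28 members (Plk1 was the exception), and their median half-width was 0.28.

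At 300 µg/l against sham, 0 of 28 passed (0.0458% of all probe sets did), and the lowest adjusted p was 0.61. Here 5 members had an unadjusted p under 0.05 (2 higher, 3 lower; 17.9%), against 5.53% of all. Non-overlapping arrays were seen for 3 members (10.7%), against 8.44% of all: Cdkn1a and Ccne2 were higher, and Mcm6 was lower. All Mcm6 arrays at 300 µg/l were below the level for testing. Between 600 and 300 µg/l, 0 of 28 passed, with 3 at an unadjusted p under 0.05, against 0.0204% and 5.05% of all. The arrays of these 2 levels did not overlap for Pcna and Ube2c, higher at 600 µg/l, and Cdc25b, lower (10.7%, against 9.03% of all). The comparisons with sham share the sham arrays.

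**Figure D2:**
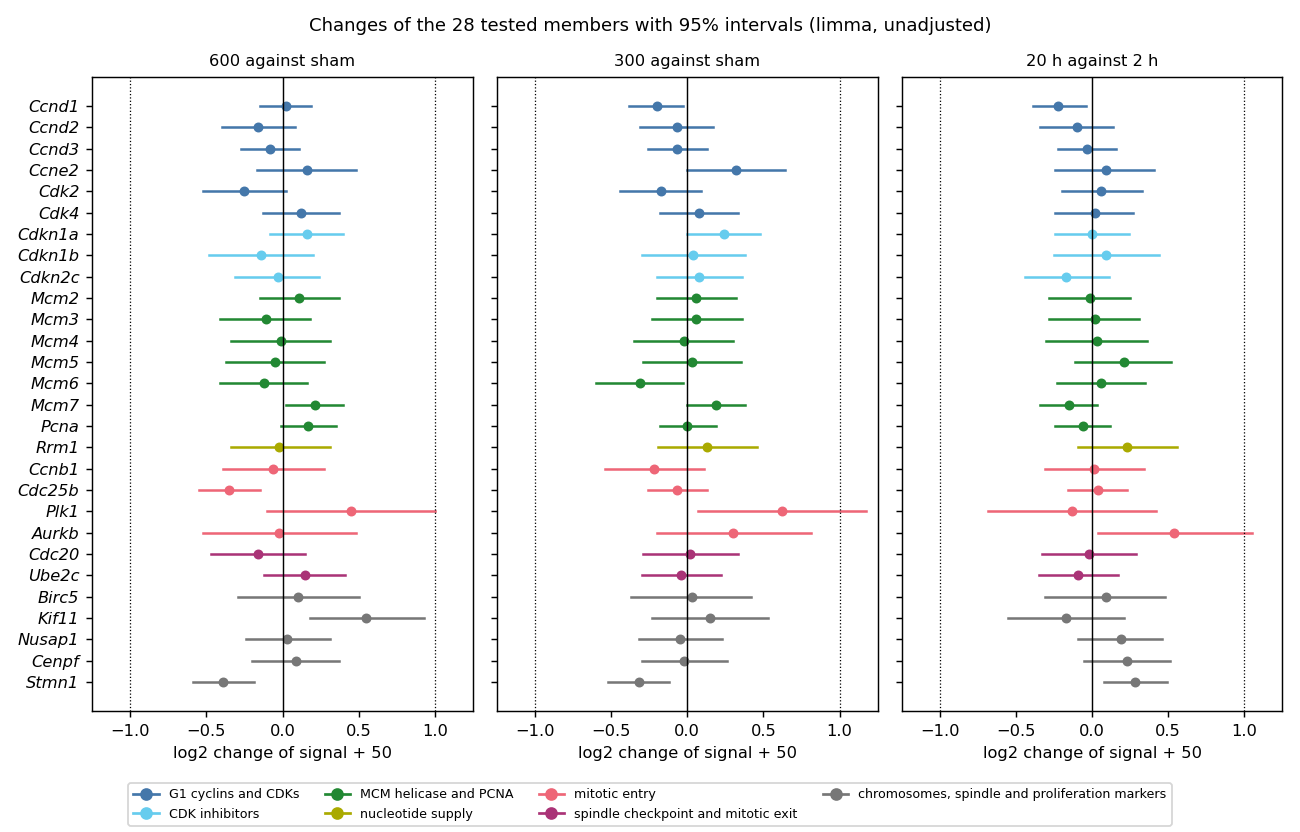
Log2 change of signal + 50 with 95% intervals (limma, unadjusted) for the 28 tested members at 600 and 300 µg/l against sham and at 20 h against 2 h, coloured by role; dotted lines mark 2-fold. Most intervals span 0 and stay inside the dotted lines, and the widest belong to Plk1 and Aurkb.

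Among cyclins and CDKs of G1, which carry cells to the start of S phase, Ccne2 and Cdk2 had non-overlapping arrays at 600 µg/l. Under sham, Ccne2 read 385.6, 365.3 and 343.9 at 2, 6 and 20 h, beside 392.8, 546.8 and 473.7 at 300 µg/l and 393.1, 399.8 and 444.5 at 600 µg/l. All smoke arrays of this E-type cyclin lay above all sham arrays. The change was 0.32 (SE 0.14, adjusted p 0.90) at 300 µg/l and 0.16 (SE 0.14, adjusted p 0.78) at 600 µg/l. The Cdk2 arrays of 2, 6 and 20 h gave 912.9, 1100.7 and 970.1 for sham, 825.3, 997.8 and 808.4 for 300 µg/l and 813.4, 775.1 and 896.7 for 600 µg/l. The 3 arrays at 600 µg/l lay below the 3 sham arrays of this kinase, which partners cyclins E and A, while those at 300 µg/l overlapped them. The change at 600 µg/l was -0.25 (SE 0.12, 95% interval -0.52 to 0.02, adjusted p 0.52). A further Cdk2 probe set on type B, which also passed the level for testing, gave -0.24 (SE 0.20) at 600 µg/l. The Cdk2 probe sets differed in sign with time, at 0.15 and, for the further one, -0.70 (SE 0.20, adjusted p 0.28) at 6 h against 2 h, and at -0.09 and 0.56 (adjusted p 1.0) at 20 h against 6 h.

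Ccnd1 signals at 2, 6 and 20 h were 2992.5, 3087.2 and 2621.0 under sham, 2769.0, 2346.6 and 2420.0 at 300 µg/l and 3180.2, 3032.7 and 2620.9 at 600 µg/l. The D-type cyclin Ccnd1 was lowest at 300 µg/l at every time, by -0.20 (SE 0.08, adjusted p 0.81) against sham, and 600 µg/l stood 0.22 above 300 µg/l (adjusted p 0.94). Without the condition of 300 µg/l at 6 h these values were -0.12 and 0.14. The other Ccnd1 probe sets gave -0.10 and 0.02 at 300 µg/l against sham, and 0.05 and -0.03 at 600 against 300 µg/l. Under sham, Ccnd2 read 1631.1, 1423.2 and 1332.3 at 2, 6 and 20 h, beside 1494.0, 1350.2 and 1324.3 at 300 µg/l and 1156.8, 1493.1 and 1279.4 at 600 µg/l. For Ccnd2, another D-type cyclin, the 20 h arrays lay below the 6 h arrays, and exposures overlapped. The remaining tested genes of this role, Ccnd3 (1401.1 to 1715.0) and the kinase Cdk4 (1049.1 to 1455.6), had changes of -0.08 and 0.12 at 600 µg/l.

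The CDK inhibitors hold CDKs in check, and Cdkn1a is also a target of p53. The Cdkn1a arrays of 2, 6 and 20 h gave 469.6, 461.8 and 523.1 for sham, 559.1, 544.1 and 639.0 for 300 µg/l and 623.3, 533.7 and 489.8 for 600 µg/l. The 3 arrays at 300 µg/l lay above the sham arrays, and those at 600 µg/l overlapped them. Its change was 0.24 (SE 0.11, adjusted p 0.90) at 300 µg/l and 0.16 (SE 0.11, adjusted p 0.68) at 600 µg/l.

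Cdkn1b signals at 2, 6 and 20 h were 1191.6, 1585.9 and 1812.3 under sham, 1654.6, 1413.4 and 1597.6 at 300 µg/l and 1643.9, 1130.6 and 1372.0 at 600 µg/l. The order of exposures in Cdkn1b, the inhibitor p27, turned with time. At 2 h the sham array was the lowest, and at 6 and 20 h it was the highest. The smoke effect (both levels together, minus sham) was 0.45 at 2 h, -0.32 at 6 h and -0.28 at 20 h. The difference was -0.77 (SE 0.22, adjusted p 0.63) between 6 and 2 h and -0.74 (SE 0.22, adjusted p 1.0) between 20 and 2 h, and both values rest on the single sham array at 2 h. Under sham, Cdkn2c read 629.1, 800.7 and 577.2 at 2, 6 and 20 h, beside 752.7, 635.2 and 727.8 at 300 µg/l and 724.0, 664.3 and 563.4 at 600 µg/l. In Cdkn2c, an inhibitor of Cdk4 and Cdk6, the sham array was the lowest at 2 h, the highest at 6 h and between the smoke arrays at 20 h. The difference in smoke effect between 6 and 2 h was -0.50 (SE 0.22, adjusted p 0.80), while a further Cdkn2c probe set on type B gave -0.13 (SE 0.32, adjusted p 0.97). At 600 µg/l against sham these probe sets gave -0.03 and 0.22.

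Among the MCM genes and Pcna, signals of Pcna and Mcm7 stood higher at 600 µg/l and those of Mcm6 lower at 300 µg/l. The Pcna arrays of 2, 6 and 20 h gave 1667.1, 1649.1 and 1795.7 for sham, 1805.3, 1719.6 and 1605.0 for 300 µg/l and 2067.8, 1806.3 and 1900.0 for 600 µg/l. All 3 arrays of the clamp at 600 µg/l lay above the sham arrays, and just above those at 300 µg/l. The change against sham was 0.17 (SE 0.08, 95% interval -0.01 to 0.35, adjusted p 0.52). Mcm7 signals at 2, 6 and 20 h were 538.9, 597.8 and 483.3 under sham, 643.0, 629.5 and 589.6 at 300 µg/l and 650.4, 686.7 and 558.4 at 600 µg/l. At every time the sham array was the lowest of the 3 for this helicase subunit, but the groups overlapped. The changes were 0.19 at 300 µg/l (adjusted p 0.90) and 0.21 at 600 µg/l (adjusted p 0.43), each with an SE of 0.08.

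Under sham, Mcm6 read 217.2, 212.4 and 192.5 at 2, 6 and 20 h, beside 142.4, 170.8 and 158.8 at 300 µg/l and 177.8, 170.1 and 212.1 at 600 µg/l. The arrays at 300 µg/l lay below the sham arrays, and those at 600 µg/l overlapped both. Mcm6 reached the level for testing on the sham arrays and at 600 µg/l and 20 h, and on no array at 300 µg/l. It was thus tested through arrays on which it was high. The change of Mcm6, another ring subunit, was -0.31 (SE 0.13, adjusted p 0.84) at 300 µg/l and -0.12 (SE 0.13, adjusted p 0.80) at 600 µg/l. The Mcm5 arrays of 2, 6 and 20 h gave 166.2, 204.6 and 158.2 for sham, 155.8, 165.7 and 223.2 for 300 µg/l and 149.5, 167.5 and 189.2 for 600 µg/l. Mcm5 reached the level for testing on 3 arrays and was highest at 300 µg/l and 20 h. The other ring subunits Mcm2 (215.2 to 273.8), Mcm3 (218.0 to 307.0) and Mcm4 (154.4 to 217.9) had changes of 0.11, -0.11 and -0.01 at 600 µg/l. The 6 subunits of 1 ring thus had values of both signs in each comparison with sham.

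In nucleotide supply, the ribonucleotide reductase subunit Rrm1 was the tested member. Rrm1 signals at 2, 6 and 20 h were 228.9, 257.3 and 245.7 under sham, 214.0, 249.1 and 372.2 at 300 µg/l and 253.4, 225.9 and 241.2 at 600 µg/l. The array of 300 µg/l at 20 h stood apart at 372.2, and the others read 214.0 to 257.3. Its change was -0.02 at 600 µg/l and 0.13 at 300 µg/l.

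Among the genes of mitotic entry, Cdc25b, a phosphatase that switches on CDKs, was the tested member whose arrays at 600 µg/l and sham did not overlap. Under sham, Cdc25b read 472.6, 455.6 and 526.2 at 2, 6 and 20 h, beside 455.7, 443.6 and 482.3 at 300 µg/l and 399.4, 344.6 and 366.8 at 600 µg/l. All 3 arrays at 600 µg/l lay below all sham arrays and all arrays at 300 µg/l, and the last 2 groups overlapped. The change was -0.35 at 600 µg/l against sham (SE 0.09, 95% interval -0.55 to -0.15, adjusted p 0.17) and -0.07 at 300 µg/l (adjusted p 1.0). Against 300 µg/l, the 600 µg/l value was -0.28 (SE 0.09, adjusted p 0.92). At 2, 6 and 20 h the difference of 600 µg/l from sham was -0.22, -0.36 and -0.47.

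The Plk1 arrays of 2, 6 and 20 h gave 133.4, 237.1 and 80.7 for sham, 232.5, 243.8 and 250.3 for 300 µg/l and 237.7, 159.3 and 242.6 for 600 µg/l. Plk1, the kinase that starts spindle assembly, was low on the sham arrays at 2 and 20 h and bright on the sham array at 6 h, so the groups overlapped. The change at 300 µg/l was 0.62 (SE 0.25, 95% interval 0.07 to 1.17, adjusted p 0.82), and it was 0.30 without sham at 20 h and 0.99 without sham at 6 h. Aurkb signals at 2, 6 and 20 h were 159.4, 185.0 and 170.2 under sham, 158.6, 149.3 and 437.9 at 300 µg/l and 159.1, 138.4 and 213.9 at 600 µg/l. Aurkb, the kinase of the chromosomal passenger complex, had 1 bright array, that of 300 µg/l at 20 h, and otherwise read 138.4 to 213.9. Under sham, Ccnb1 read 207.2, 223.3 and 188.4 at 2, 6 and 20 h, beside 183.8, 127.6 and 208.0 at 300 µg/l and 197.2, 189.5 and 198.9 at 600 µg/l. The mitotic cyclin Ccnb1 was lowest at 300 µg/l and 6 h, with a change of -0.06 at 600 µg/l.

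In the spindle checkpoint and mitotic exit group, both tested members were partners or parts of the anaphase-promoting machinery. The Ube2c arrays of 2, 6 and 20 h gave 254.8, 325.2 and 231.9 for sham, 245.9, 284.7 and 248.0 for 300 µg/l and 329.7, 288.5 and 289.4 for 600 µg/l. The arrays of this ubiquitin-conjugating enzyme at 600 µg/l lay above those at 300 µg/l, and sham spanned both. Cdc20 signals at 2, 6 and 20 h were 186.5, 219.4 and 202.4 under sham, 250.5, 177.9 and 193.5 at 300 µg/l and 166.3, 171.7 and 190.7 at 600 µg/l. The activator Cdc20 was highest at 300 µg/l and 2 h, and its change was -0.16 at 600 µg/l.

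In the chromosome, spindle and proliferation group, arrays at 600 µg/l and sham did not overlap for 2 of 5 tested members, Stmn1 and Kif11. Of all probe sets, 14.4% did not overlap there. Under sham, Stmn1 read 1676.7, 1595.0 and 1920.5 at 2, 6 and 20 h, beside 1143.5, 1361.3 and 1649.3 at 300 µg/l and 1259.8, 1252.7 and 1407.4 at 600 µg/l. All 3 arrays of Stmn1, which destabilises microtubules, lay at 600 µg/l below all sham arrays. At 300 µg/l the array at 20 h overlapped sham. The change was -0.39 (SE 0.09, 95% interval -0.59 to -0.19, adjusted p 0.13) at 600 µg/l and -0.32 (SE 0.09, adjusted p 0.61) at 300 µg/l. Both smoke arrays were below sham at each of the 3 times.

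The Kif11 arrays of 2, 6 and 20 h gave 451.2, 378.6 and 401.8 for sham, 409.7, 594.2 and 396.5 for 300 µg/l and 746.3, 554.3 and 588.6 for 600 µg/l. All 3 arrays of Kif11, a kinesin that pushes spindle poles apart, lay at 600 µg/l above all sham arrays, and those at 300 µg/l overlapped both groups. The change was 0.55 (SE 0.17, 95% interval 0.18 to 0.93, adjusted p 0.26) at 600 µg/l and 0.15 (adjusted p 1.0) at 300 µg/l. Without the type B sham array at 2 h it was 0.59 at 600 µg/l. A second Kif11 probe set was dim, at 27.9 to 156.0, and was not tested. Kif11 and Stmn1, both acting on spindle microtubules, thus stood on opposite sides of sham.

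Cenpf signals at 2, 6 and 20 h were 487.3, 482.1 and 611.7 under sham, 496.4, 548.2 and 505.5 at 300 µg/l and 474.8, 588.4 and 626.9 at 600 µg/l. The 20 h arrays of Cenpf, a kinetochore protein, lay above the 2 h arrays. Under sham, Nusap1 read 532.8, 688.4 and 669.3 at 2, 6 and 20 h, beside 562.6, 675.0 and 580.5 at 300 µg/l and 608.2, 605.1 and 718.3 at 600 µg/l. Exposures overlapped for Nusap1, a spindle-binding protein, with changes of -0.05 at 300 µg/l and 0.03 at 600 µg/l. Birc5, the survivin of the passenger complex, read 142.0 to 235.0 and had a change of 0.10 at 600 µg/l.

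**Figure D3:**
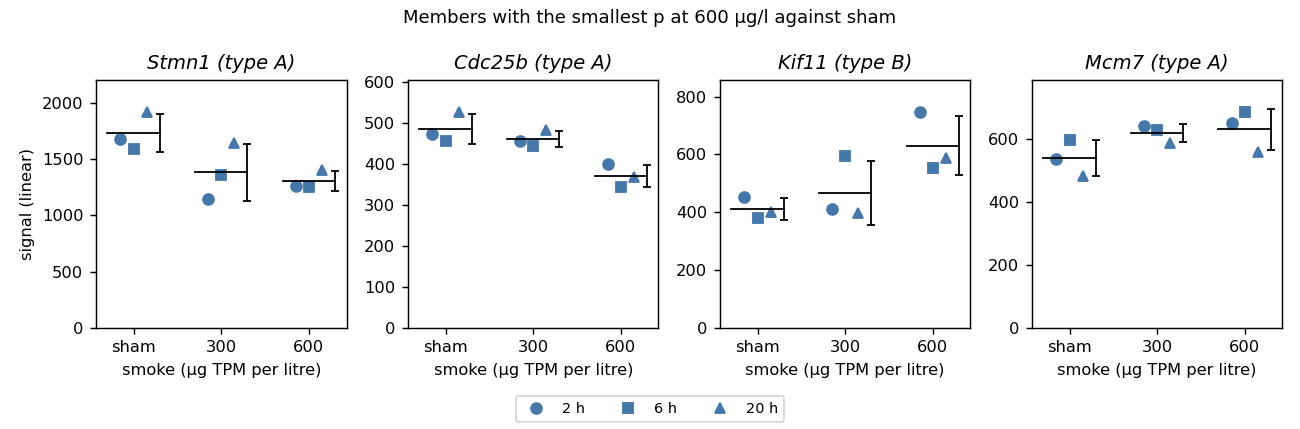
Signal (linear) of Stmn1, Cdc25b, Kif11 and Mcm7 by exposure in µg TPM per litre; each point is 1 array, marked by recovery time, with the mean (line) and SD (bar, n = 3). Stmn1 and Cdc25b are lower and Kif11 higher at 600 µg/l than on any sham array, and Mcm7 overlaps.

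Recovery time separated few members. At 6 h against 2 h, 0 of 28 passed and 0 had an unadjusted p under 0.05, against 0.0153% and 10.8% of all probe sets. These counts use 1 probe set per gene. Of 5 further tested probe sets of members, 2 had an unadjusted p under 0.05 at 6 h against 2 h, the Cdk2 one at -0.70 and a Ccnd1 one at -0.20 (adjusted p 0.45). No member had non-overlapping arrays at these times, against 16.1% of all. At 20 h against 2 h, 0 of 28 passed and 3 had an unadjusted p under 0.05, against 0.0509% and 11.4%. Arrays did not overlap for Cenpf and Aurkb, higher at 20 h, and Ccnd1, lower (10.7%, against 18% of all). Aurkb reached the level for testing on the sham array at 6 h and on both smoke arrays at 20 h, and on no array at 2 h. Like Mcm6, it was thus tested through arrays on which it was high. The Stmn1 value at 20 h against 2 h was 0.28 (SE 0.09, adjusted p 0.28), with overlap, and 0.18 without the condition of 300 µg/l at 2 h.

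Ccnd1 stood at -0.22 (SE 0.08, adjusted p 0.34) at 20 h against 2 h, and its other probe sets gave -0.38 and -0.15. Aurkb stood at 0.54 (SE 0.23, adjusted p 0.40), at 0.19 with the bright condition of 300 µg/l at 20 h left out, and at 0.83 without sham at 20 h. At 20 h against 6 h, 0 of 28 passed and 3 had an unadjusted p under 0.05 (0% and 4.49% of all). Ccnd2 and Mcm7 were lower without overlap, which is 7.14% of members against 8.39% of all.

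Whether the smoke effect differed between times was tested with the 2 smoke levels pooled. For 6 h against 2 h, 0 of 28 passed (0% of all), and 3 had an unadjusted p under 0.05 (10.7%), against 6.27% of all. These were Cdkn1b, Cdkn2c and Plk1, all negative. Of all probe sets, 2.54% were negative at that p, a direction counted after the members' values were seen. All 3 values rest on the same single sham arrays at 2 and 6 h. For 20 h against 2 h, 0 of 28 passed (0.0102% of all), and Cdkn1b alone had an unadjusted p under 0.05, against 3.45% of all. For Plk1 the difference between 6 and 2 h was -0.85 (SE 0.31, adjusted p 0.75). Intervals were wider here, with a median half-width of 0.61. The residual spread of that model lies between the 2 smoke levels and holds no variation of sham arrays. Over members, the median smoke effect was 0.01 at 2 h, -0.19 at 6 h and 0.08 at 20 h, beside -0.01, 0 and -0.01 over all probe sets. The sham array at 6 h and the array of 300 µg/l at 20 h were each the brightest for 5 members.

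**Figure D4:**
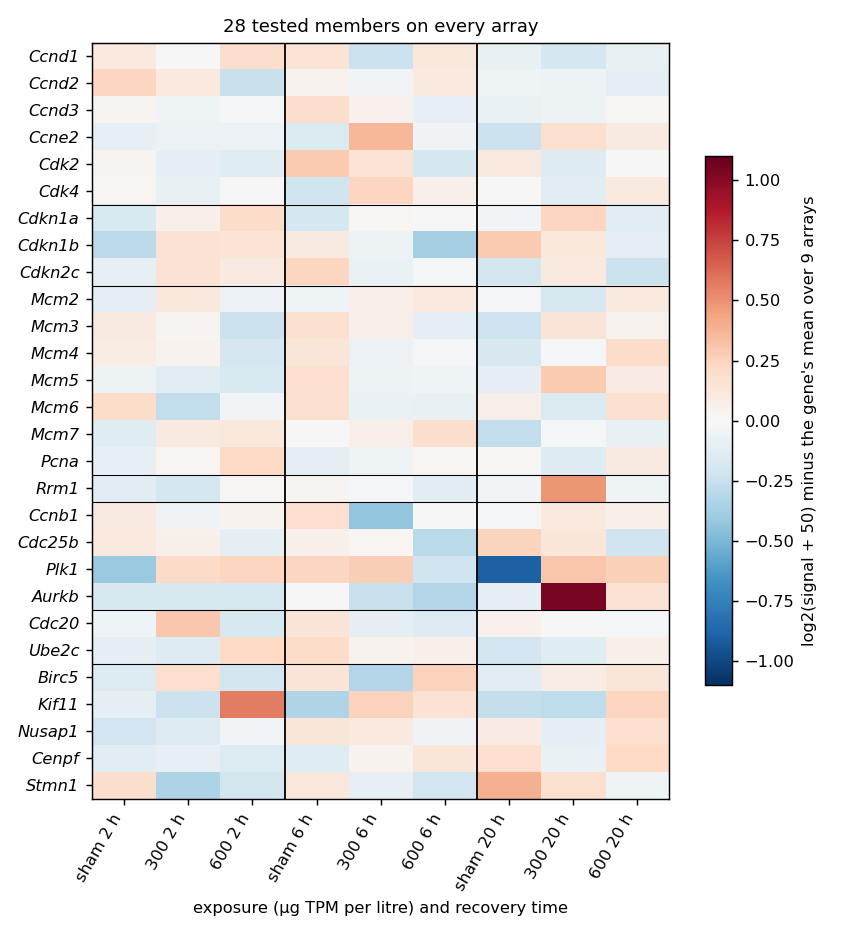
Log2(signal + 50) minus each gene's mean over 9 arrays for the 28 tested members (rows, ordered by role with lines between roles) in the 9 conditions (columns). Single cells stand out, such as Aurkb and Rrm1 at 300 µg/l and 20 h and Plk1 under sham at 20 h, while most other cells are pale.

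Other genes of the same pathways were counted from 3 lists. Of 147 genes, 130 had a probe set and 89 were tested, and by 1 probe set per gene none passed in limma in any of the 8 comparisons. A further tested probe set of the replication gene Gmnn, on type B, did pass at 600 µg/l against sham. It stood at 1.23 (SE 0.18, adjusted p 0.02) there and at 1.21 (SE 0.18, adjusted p 0.077) at 300 µg/l. For the Gmnn probe set counted here, the exposure F test gave an unadjusted p of 0.81. At 600 µg/l, 12 of the 89 had an unadjusted p under 0.05 (5 higher, 7 lower; 13.5%), beside the 10.3% of all probe sets. The share was 2.25% at 300 µg/l against sham and 2.25% between the smoke levels, beside 5.53% and 5.05% of all. It was 7.87% at both 6 and 20 h against 2 h, beside 10.8% and 11.4%, and 2.25% at 20 h against 6 h, beside 4.49%. For the difference of the smoke effect it was 6.74% (6 against 2 h) and 3.37% (20 against 2 h), beside 6.27% and 3.45%. By list at 600 µg/l these were 0 higher and 3 lower of 29 replication genes, 3 higher and 1 lower of 26 mitosis genes, and 2 higher and 3 lower of 34 regulators. The splits of replication genes and of regulators depend on the probe set chosen. At that p, further tested probe sets of Gmnn and Cdc45 (0.57, SE 0.16, adjusted p 0.23) were higher. A further probe set of Orc4 was lower (-0.23, adjusted p 0.45). Among regulators, a further Mdm2 probe set on type A was higher (0.35, SE 0.10, adjusted p 0.24), and another stood at 0.11 (adjusted p 0.86). For the Mdm2 probe set counted here, the exposure F test gave an unadjusted p of 0.86.

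The Myc arrays of 2, 6 and 20 h gave 171.0, 215.7 and 247.1 for sham, 337.9, 268.7 and 324.5 for 300 µg/l and 399.3, 381.5 and 318.5 for 600 µg/l. Every smoke array of Myc, a transcription factor that promotes growth, lay above every sham array, with changes of 0.47 (SE 0.14, adjusted p 0.69) at 300 µg/l and 0.68 (SE 0.14, adjusted p 0.09) at 600 µg/l. Pola2 signals at 2, 6 and 20 h were 584.6, 756.8 and 529.6 under sham, 295.3, 528.0 and 359.6 at 300 µg/l and 265.3, 425.0 and 471.4 at 600 µg/l. Every smoke array of Pola2, a subunit of DNA polymerase alpha, lay below every sham array, with changes of -0.62 (adjusted p 0.39) and -0.64 (adjusted p 0.13), each with an SE of 0.15. Ccng2, a cyclin linked to cell cycle exit, stood at -0.42 (SE 0.11, adjusted p 0.19) at 600 µg/l. The nuclear lamina gene Lmnb1 stood at -0.25 (SE 0.08, adjusted p 0.32) and the F-box cyclin Ccnf at 0.38 (SE 0.13, adjusted p 0.30).

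With time, Orc4 of the origin recognition complex stood at 0.43 (adjusted p 0.21) at 20 h against 2 h, but at -0.11 on a further probe set on type A. Cdc45 of the replicative helicase stood at -0.38 (adjusted p 0.31), and at -0.01 and -0.25 on its further tested probe sets. Ncaph, a condensin subunit, stood at 0.29 (SE 0.14, adjusted p 0.47) at 20 h against 2 h and at 0.42 (SE 0.14, adjusted p 1.0) against 6 h, and at 0.16 (adjusted p 0.76) at 600 µg/l against sham. Rbl1, a relative of the retinoblastoma protein, stood at 0.58 (adjusted p 0.27) at 6 h against 2 h.

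Of 9 marker lists, those of macrophages and neutrophils held genes that passed at 600 µg/l against sham. For macrophages 5 of 8 tested markers passed, all higher. Over the 8 the median change was 0.83, with a range of -0.40 to 1.73 and 1 of them negative. The summed signal of the list was 34938 to 38015 under sham, 45299 to 48410 at 300 µg/l and 50039 to 55522 at 600 µg/l. Of 3 tested neutrophil markers 1 passed, higher, and the sums were 1391 to 2310, 3172 to 4234 and 4000 to 8370. In limma 0 of 7 T cell markers and 0 of 6 fibroblast markers passed, and 6 and 3 of them had an unadjusted p under 0.05, all lower. Of all probe sets, 10.3% had such a p in either direction. T cell sums were 2961 to 3594 under sham, 2703 to 3322 at 300 µg/l and 2180 to 2557 at 600 µg/l. Fibroblast sums were 15128 to 15827, 12374 to 13912 and 12298 to 13751. At 300 and 600 µg/l the median change was -0.07 and -0.38 for the T cell list and -0.19 and -0.23 for the fibroblast list. It was -0.25 and -0.23 for the erythroid list, beside -0.32 and -0.39 for Stmn1. None passed of 7 lung epithelial, 5 B and plasma cell, 5 endothelial, 3 erythroid and 1 thymus and germinal centre markers, and 1, 0, 2, 2 and 0 of them had an unadjusted p under 0.05, all lower. The part of these cell types in the members' values was not tested.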

How the data were processed

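The authors deposited 1 intensity value (MAS5 signal, not log-transformed) per probe set and array. MAS5 is named in the submitters' processing notes without a version. The trimmed mean of each array (2% cut at either end) came to 500.09 to 500.10, and no further scaling was applied. Medians per array ran from 263.6 to 278.5 (A) and from 315.3 to 338.7 (B). Symbols came from the platform annotation table.

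Log2(signal + 50) was fitted per array type with limma 3.58.1 in R 4.3.3, with a trended eBayes prior. An additive model of exposure and time had 4 residual degrees of freedom. A further model crossed smoke with time and had 3. Tests were two-sided. Without the 57 control probe sets per type, 9901 probe sets on A and 9737 on B were tested, and 100 present on both were tested on A only. Changes are on the log2(signal + 50) scale, which understates those of dim genes. The code was tested on simulated data. Values for every array are given for up to 4 members of each role with the smallest exposure or time F test p, and up to 3 genes of each further list are named likewise. Members, lists and tests were chosen with earlier results of these data known. Alternatives covered normalization, pseudocount, filter, variance trend, adjustment, samples, covariates, probe set choice and leaving out conditions.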

Additional observations from a re-analysis of the deposited data

How the results depend on the processing

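In each of 164 recomputed counts, from up to 22 alternative settings of the 8 comparisons, 0 members passed, with 16 to 41 members tested and a smallest adjusted p of 0.077 (Stmn1 at 600 µg/l against sham, adjusted within the array type). Every member value at an unadjusted p under 0.05 kept its sign. Stmn1 at 600 µg/l ranged from -0.44 to -0.34, Cdc25b from -0.41 to -0.26 and Kif11 from 0.43 to 0.69. With 1 condition left out, Plk1 at 300 µg/l ranged from 0.30 to 0.99, Aurkb at 20 h against 2 h from 0.19 to 0.83, Stmn1 there from 0.18 to 0.34 and Ccnd1 at 300 µg/l from -0.25 to -0.12. Without the 20 h conditions, Stmn1 stood at -0.37 and Cdc25b at -0.29. A difference in smoke effect between 2 times could not be computed without the sham condition of either time. Each condition had 1 array of each type, so there were no replicates to pair. Recovery time was a term of the additive model, so exposures were matched by time. Signal near background limits the 13 untested members.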
